A study of Danio rerio with 4 samples.

Results

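Skeletal muscle of vertebrate embryos is set up by basic helix-loop-helix transcription factors of the MyoD family, which act with E protein partners and are held back by Id proteins. In zebrafish, Myf5 and MyoD start this programme in paraxial mesoderm, Prdm1a directs the slow fibre fate downstream of Hedgehog signalling, and actins, myosins and troponins of the sarcomere follow as the cells differentiate. The 5 genes described here were the rows of the authors' deposited gene table named myf5, myod1, prdm1a, actc1a and tnnt1, chosen by name. The choice was made with earlier results of these data known, so their ranks and directions are a description and no test. The genes are 5 of 2477 rows, and each name matched 1 row. The genes myf5, myod1 and prdm1a encode regulators, and actc1a and tnnt1 encode an actin and a troponin subunit of the contractile apparatus.

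The RNA came from primordial germ cells of zebrafish embryos of strain AB at 13 hours post fertilization, sorted on germline EGFP fluorescence. Embryos had received dead end MO (2 libraries) or control MO (2 libraries). A morpholino (MO) is a synthetic antisense oligonucleotide, and the Dead end protein binds RNA in the germ cells of vertebrates, which need it. All embryos in both groups were injected and sorted in the same way according to the labels, which do not name the transgene promoter, the sequence targeted by the control or the number of embryos pooled. The title of the series asks how Dead end holds germ cells in their fate and away from somatic differentiation, and genes that drive muscle bear on the somatic side of that question.

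The table gives FPKM (fragments scaled to transcript length and library size), with 1 value for each group, so that no standard deviation between libraries could be computed and the depth is unknown. A gene counts as changed here at an authors' q under 0.05. Every row of the table passes that limit, so genes outside the table were not analysed here and a gene's presence in it is already a call. Of the 2477 rows, 1609 (65.0%) were higher and 868 (35.0%) were lower with dead end MO in the authors' deposited table. The germ cell identity of the label was checked with 12 marker symbols, of which 9 were in the authors' deposited table and all 9 were lower with dead end MO, yet none was listed at 0. Their summed level there was 2355 FPKM with dead end MO and 10522 FPKM with control MO. In such sorted bulk samples, fewer cells of a type and less RNA per cell cannot be told apart.

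Of the 5 muscle genes, 4 were higher with dead end MO and 1 was lower in the authors' deposited table, where 65.0% of all rows were higher. The 3 regulators and the actin gene rose together by 6.34-fold to 14.1-fold, while the troponin gene tnnt1 was listed at 0 with dead end MO and was low with control MO. The size of the rises depends on how the groups are scaled. With each group scaled to its sum over the table the log2 ratio was 2.80 for myf5 and 1.65 for prdm1a, and centred on the median of the table it was 2.55 for myf5 and 1.40 for prdm1a, against 3.82 and 2.67 as deposited. After that centring 48.4% of all rows were higher, a share set by the centring itself, and 4 members still were. The contractile genes did not share a direction, and actc1a rose by about as much as the least changed regulator, prdm1a.

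**Figure D1:**
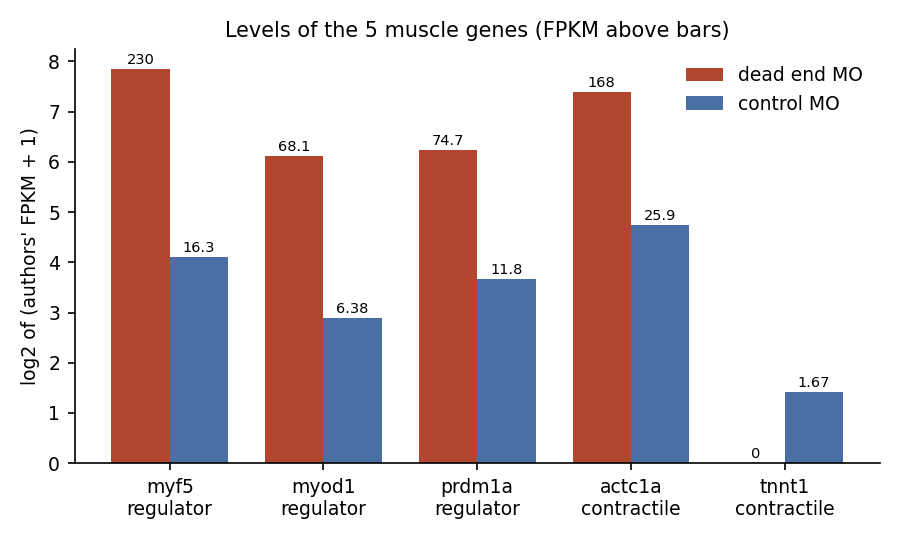
Levels of the 5 genes as log2 of (FPKM + 1), with the authors' FPKM printed above each bar and 1 pooled value for each group, so that no error bar can be drawn. The bars for dead end MO stand above those for control MO for myf5, myod1, prdm1a and actc1a, and for tnnt1 the control bar alone is above 0.

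Myf5 is one of the earliest myogenic factors in presomitic mesoderm. The authors' deposited table gave myf5 (ENSDARG00000007277, chromosome 4, 22020252 to 22024132) at 229.7 FPKM with dead end MO and 16.3 FPKM with control MO. That was a rise of 14.1-fold, or 3.82 on the log2 scale, with an authors' test statistic of 6.98 and q = 0.00107. Among the 1533 higher rows with both values above 0 it had the 19th largest ratio, and its statistic ranked 9th in the authors' deposited table. It was also the member with the highest level under dead end MO.

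MyoD commits cells to the muscle lineage together with Myf5. For myod1 (ENSDARG00000030110, chromosome 25, 30843776 to 30846017) the authors' deposited table gave 68.1 FPKM with dead end MO and 6.38 FPKM with control MO. The rise was 10.7-fold, or 3.42 on the log2 scale (test statistic 5.05, q = 0.00107, authors' deposited table), and its ratio ranked 47th. Levels in FPKM are per length and can be set side by side. In the authors' deposited table myf5 stood at 3.37 times the level of myod1 with dead end MO and at 2.55 times with control MO, so myf5 was the more abundant of the pair in both groups. Their summed level there was 298 FPKM with dead end MO, against 22.7 FPKM with control MO.

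Prdm1a is a zinc finger transcriptional repressor that zebrafish embryos use in slow muscle precursors, in the hatching gland and at the neural plate border. In the authors' deposited table prdm1a (ENSDARG00000002445, chromosome 16, 7513651 to 7526042) was at 74.7 FPKM with dead end MO and at 11.8 FPKM with control MO. This was the smallest rise of the 3 regulators, 6.34-fold or 2.67 on the log2 scale (test statistic 5.52, q = 0.00107, authors' deposited table). Its ratio ranked 170th. Its level was above that of myod1 in both groups, by a smaller factor with dead end MO than with control MO, where it was 1.85 times as high, in the authors' deposited table.

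The actin gene actc1a encodes an alpha actin of the cardiac type that is part of striated muscle thin filaments. The authors' deposited table listed actc1a (ENSDARG00000042535, chromosome 20, 29574264 to 29580635) at 167.8 FPKM with dead end MO and 25.9 FPKM with control MO. The rise was 6.49-fold, or 2.70 on the log2 scale (test statistic 5.20, q = 0.00107, authors' deposited table), and its ratio ranked 158th. Of the 5 genes it was the most abundant with control MO. The order of levels differed at the top between the groups in the authors' deposited table: myf5, actc1a, prdm1a, myod1 and tnnt1 with dead end MO, and actc1a, myf5, prdm1a, myod1 and tnnt1 with control MO. With 1 value for each group it cannot be said which neighbours in either order differ beyond the spread between libraries. Reads of near-identical actin genes can be split in such a quantification, so the values of actc1a and of the skeletal actin gene acta1a carry that uncertainty.

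The gene tnnt1 encodes the troponin T of slow fibres, which anchors the troponin complex to tropomyosin. The authors' deposited table gave tnnt1 (ENSDARG00000037954, chromosome 3, 32025425 to 32039164) at 0 with dead end MO and at 1.67 FPKM with control MO (p = 0.00025, q = 0.00381). No fold is given against a value listed at 0, which can be a failed estimate. It is among 156 rows of the authors' deposited table that are listed at 0 with dead end MO and whose control levels had a median of 1.55 FPKM and reached from 0.780 to 419 FPKM. Its control level was therefore close to the middle of those rows.

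Set against each other, the regulators rose by a median of 10.7-fold and actc1a by 6.49-fold in the authors' deposited table, a difference of 0.72 on the log2 scale. This gap lay within the range of the regulators themselves, since myf5 and prdm1a differed by 1.15 on the log2 scale while actc1a and prdm1a differed by 0.03. The level of myf5 relative to actc1a was 1.37 with dead end MO and 0.63 with control MO in the authors' deposited table. These differences between genes were not tested. The median over the 1533 higher rows with both values above 0 was 2.96-fold in the authors' deposited table, below each of the 4 members that rose.

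**Figure D2:**
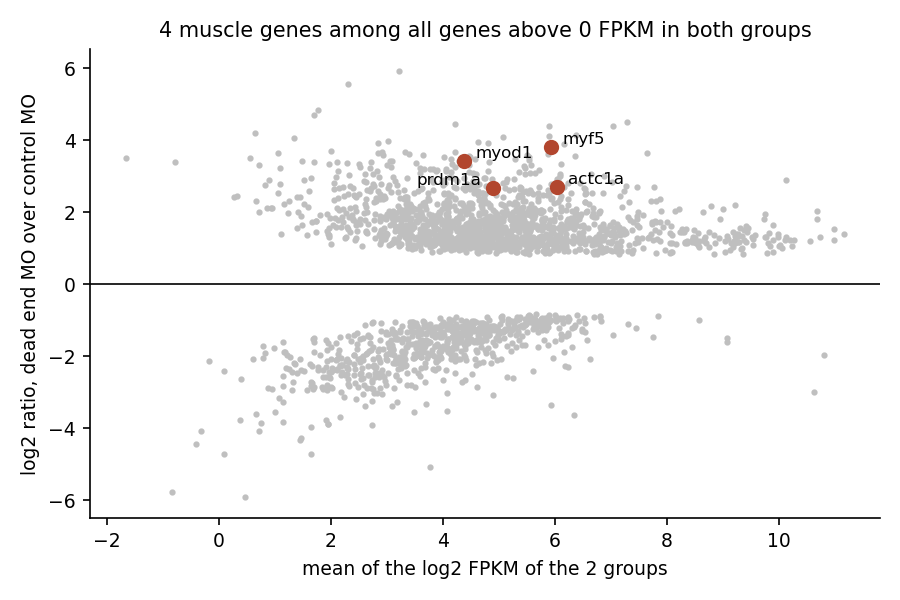
Log2 ratio of FPKM, dead end MO over control MO, against the mean log2 FPKM of the groups for the 2245 rows with both values above 0, 1 grey point for each row and the 4 members that rose in red. The members lie between 2.67 and 3.82 on the vertical axis, in the upper part of the higher genes, and the empty band around 0 is there because the table holds only called genes.

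By position, no other row of the authors' deposited table overlapped the locus of any of the 5 genes. In the RefSeq gene order (assembly GRCz12tu), myf5 lies beside its relative myf6, and myod1 beside tnnt3a, a fast troponin T gene. These neighbours were not analysed here. Within 500 kb of myf5 the authors' deposited table held 2 rows, of which ppp1r12a and rps16 went in opposite directions, and within 500 kb of myod1 it held lsp1 alone, which was higher.

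The genes nearest to each member in level were found by the distance between their values in both groups, as log2 of (FPKM + 1). With only 2 values for each gene this is a description of level and not of co-regulation. Nearest to myod1 was unc45b, which encodes a myosin chaperone, at 70.6 FPKM with dead end MO and 6.60 FPKM with control MO in the authors' deposited table, a distance of 0.0668. For myf5 it was the Delta ligand gene dld (distance 0.159), for prdm1a the ephrin receptor gene epha4a (0.0539), and for actc1a greb1l (0.0983). The next nearest were pou5f3, fsta, ccne2 and sox3 for myf5, myod1, prdm1a and actc1a in that order, and tnnt1 was matched by fbxo36b and FBLN7, both listed at 0 with dead end MO in the authors' deposited table.

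The wider programme was followed with 7 lists of genes of muscle or of its regulation, 204 symbols in all. Of these 49 were in the authors' deposited table. They include 8 bHLH partners and inhibitors, 9 mesodermal genes and 9 slow muscle and Hedgehog genes, from lists not limited to genes specific to muscle. Of the 49 genes 47 were higher and 2 lower, and without the 5 members the count was 43 of 44 higher, beside 65.0% of all rows. The median of these 44 genes was 4.97-fold over the 43 with both values above 0, beside 2.40-fold over all such rows of the authors' deposited table. Because the table holds called genes only, such counts describe direction and not how often genes of these lists changed.

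**Figure D3:**
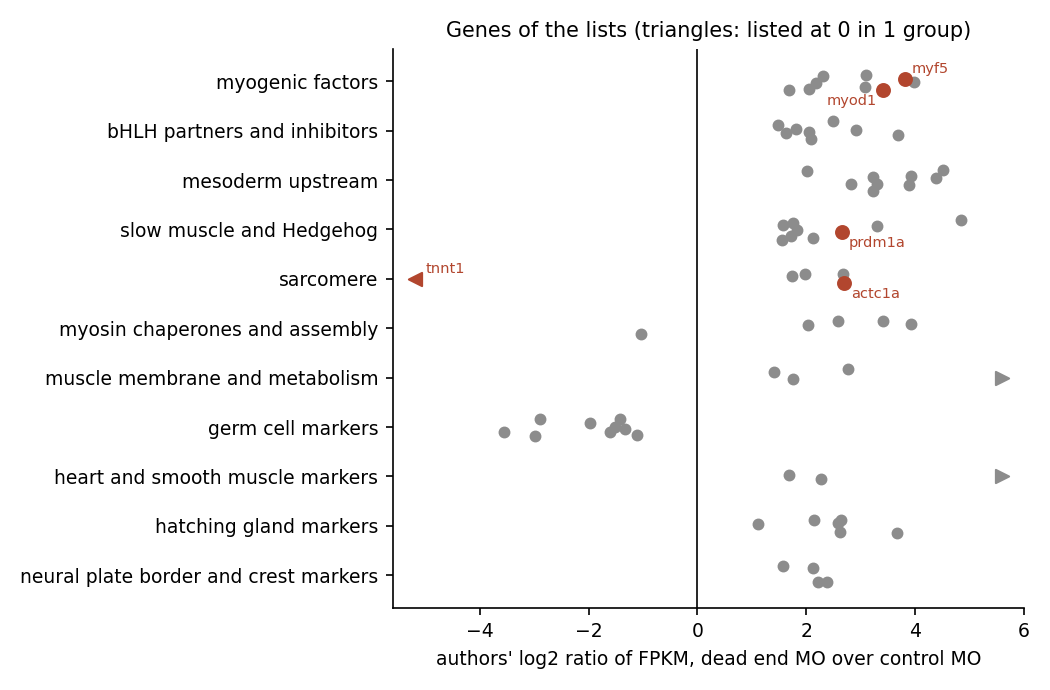
Log2 ratios of FPKM, dead end MO over control MO, for the genes of each list that were in the table, 1 point for each gene, the members in red and genes listed at 0 in 1 group as triangles at the edge, without a ratio. All 9 germ cell genes lie left of 0. Of the 49 genes of the 7 lists of the wider programme, all but 2, tnnt1 and bag3, lie on the right.

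Among myogenic factors 9 of 28 symbols were in the authors' deposited table. All 9 were higher, beside 65.0% of all rows, with a median of 8.52-fold. Without the members myf5 and myod1 the median of the other 7 was 4.97-fold. The homeobox gene six4a, whose family activates myogenic factor genes, stood at 32.2 FPKM with dead end MO and 2.04 FPKM with control MO (15.8-fold, q = 0.00588, authors' deposited table). The somite homeobox gene meox1 rose 8.55-fold and lbx2 8.52-fold there, ahead of tcf15 (4.97-fold) and the dermomyotome gene pax3a (4.51-fold). The cell cycle inhibitor gene cdkn1ca, which assists MyoD in slow muscle, was at 186.8 FPKM with dead end MO and 58.1 FPKM with control MO in the authors' deposited table (3.21-fold, the smallest rise of the list). The late factor genes myog and myf6 were not analysed here.

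The called genes among the partners and among the inhibitors of these factors were higher. Of 20 symbols, 8 were in the authors' deposited table, all higher beside 65.0% of all rows, with a median of 4.21-fold. The E protein genes tcf3b and tcf3a, whose products pair with MyoD family factors, rose 5.62-fold and 2.78-fold there. The inhibitor gene id1 was at 1064 FPKM with dead end MO and 249 FPKM with control MO in the authors' deposited table, and id3 rose 3.08-fold. The largest rise was that of twist1a (12.8-fold), which encodes a mesodermal bHLH factor, followed by the zinc finger repressor gene snai1a (7.54-fold, authors' deposited table).

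The list of mesodermal genes holds T-box, bHLH, forkhead and apelin receptor genes and ripply1. It had the largest median of the 7 lists, 9.84-fold, with 9 of 11 symbols in the authors' deposited table. All 9 were higher, beside 65.0% of all rows. The bHLH gene msgn1 and the T-box gene tbx6 of presomitic mesoderm had the largest ratios of this list in the authors' deposited table, 22.9-fold (751 FPKM with dead end MO and 32.8 FPKM with control MO) and 20.9-fold (597 FPKM with dead end MO and 28.6 FPKM with control MO). The authors' test statistic was the smallest of the list for msgn1, 3.35 (q = 0.00992), and the largest for tbx6, 8.50 (q = 0.00107). In the authors' deposited table the locus of msgn1 runs from 149699 to 340476 on chromosome 4. That span is far wider than the locus of tbx6, 3875778 to 3886305 on chromosome 12. Whether the msgn1 value includes other transcripts was not tested. The forkhead gene foxc1a was at 275 FPKM with dead end MO and 18.6 FPKM with control MO there (14.8-fold). The apelin receptor genes aplnrb and aplnra rose 15.2-fold and 9.38-fold, and ripply1, which encodes a repressor at the somite boundary, rose 9.84-fold there. In the authors' deposited table the smallest rise of this list was 4.06-fold, for the T-box gene tbx16.

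Around prdm1a, the list of slow muscle and Hedgehog genes had 9 of 18 symbols in the authors' deposited table. All 9 were higher, beside 65.0% of all rows, with a median of 3.57-fold. The transcriptional mediator gene gli1 was at 30.7 FPKM with dead end MO and 9.10 FPKM with control MO there (3.37-fold). The signal transducer gene smo rose 3.30-fold in the authors' deposited table. Genes for the ligand itself, made by notochord and floor plate, were low in controls: shhb was at 18.3 FPKM with dead end MO and 0.636 FPKM with control MO, and shha at 25.3 FPKM with dead end MO and 2.55 FPKM with control MO in the authors' deposited table. Both tnnt1 and prdm1a are used in slow muscle, and prdm1a was higher while tnnt1 was lower. The direction of tnnt1 rests on 1.67 FPKM with control MO against a listed 0, which can be a failed estimate. The gene prdm1a is also used in the hatching gland and at the neural plate border.

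Of 77 sarcomere symbols, 5 were in the authors' deposited table, 4 of them higher and tnnt1 lower, beside 65.0% of all rows higher. The table holds called genes only, so this count does not say how often sarcomere genes changed. The fast troponin I gene tnni2b.1 was at 31.4 FPKM with dead end MO and 4.90 FPKM with control MO there (6.41-fold, q = 0.0469, close to the limit). The titin gene ttnb rose 3.97-fold to 4.70 FPKM with dead end MO, and acta1a rose 3.32-fold, to 53.0 FPKM with dead end MO against 16.0 FPKM with control MO, in the authors' deposited table. The level of actc1a was 3.16 times that of acta1a with dead end MO and 1.62 times with control MO. The other 72 symbols, which include the myosin heavy chain genes, were not analysed here.

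Genes for the folding and assembly of myosin had 5 of 14 symbols in the authors' deposited table, 4 of them higher, beside 65.0% of all rows. The lysine methyltransferase gene smyd1b, needed for myosin assembly, was at 27.9 FPKM with dead end MO and 1.84 FPKM with control MO there (15.2-fold, q = 0.0173), and unc45b rose 10.7-fold. Their partner gene hsp90aa1.1, which is also a stress gene, rose 5.97-fold (q = 0.0313), and the heat shock gene hspb1 rose 4.12-fold there. One gene went the other way, the co-chaperone gene bag3, which fell to 16.7 FPKM with dead end MO, against 34.4 FPKM with control MO (q = 0.0447, authors' deposited table). Of 36 symbols for muscle membranes, fusion and metabolism 4 were in the authors' deposited table, all higher, beside 65.0% of all rows. The 4 genes were the adhesion gene kirrel3l (6.82-fold), the dystroglycan gene dag1 (3.37-fold), the myoblast fusion gene jam3b (2.64-fold) and the sarcoglycan gene sgca. The last was at 1.98 FPKM with dead end MO and listed at 0 with control MO.

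**Figure D4:**
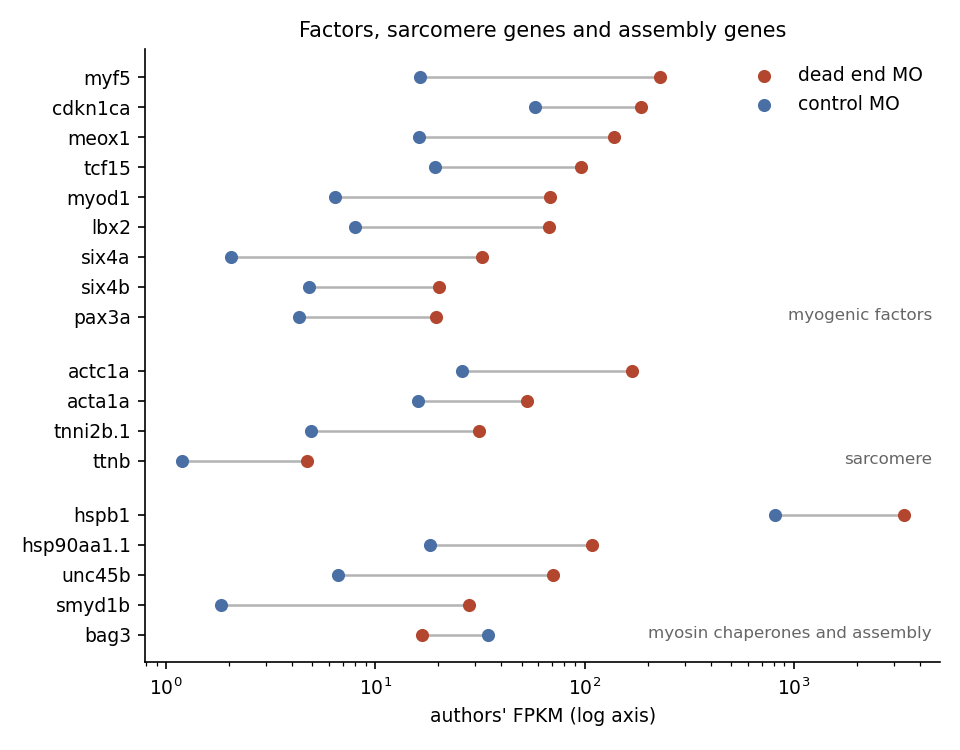
Authors' FPKM on a log axis for the genes of 3 lists, red points for dead end MO and blue points for control MO, 1 pooled value for each group, without tnnt1, which cannot be drawn at 0. The red point lies right of the blue one for each gene except bag3.

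Other sites of expression of the members were checked with markers. Of 12 hatching gland symbols 6 were in the authors' deposited table, all higher, with a summed level of 690.4 FPKM with dead end MO and 176 FPKM with control MO. For the neural plate border and crest 4 of 11 symbols were there, all higher, summing to 193 FPKM with dead end MO and 46.4 FPKM with control MO. They were dlx3b, msx1b, msx3 and tfap2a, and other genes of that list, such as crestin, were not analysed here. Heart and smooth muscle had 3 of 17 symbols in the authors' deposited table, all higher, summing to 41.8 FPKM with dead end MO and 10.9 FPKM with control MO. They were gata4, gata5 and hand2, with gata4 listed at 0 with control MO. The smooth muscle genes of that list, such as tagln, and heart genes such as vmhc and nppa were not analysed here. Over genes with both values above 0, the median was 6.08-fold for the hatching gland and 4.50-fold for the neural plate border and crest. For heart and smooth muscle it was 3.94-fold, over 2 genes. The 7 lists of the wider programme had 4.97-fold without the members, and 65.0% of all rows were higher. A rise was therefore not particular to those 7 lists. The part of these cell types in the levels of prdm1a and actc1a was not tested.

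The authors' own enrichment of the higher genes, against all genes of their reference list, listed differentiation terms of muscle among others. In the authors' deposited table of terms, muscle structure development had 35 genes where 11.7 were expected (2.99-fold, Bonferroni p = 7.11e-05) and striated muscle cell differentiation had 25 where 6.91 were expected (3.62-fold, p = 0.000232). Of the 375 terms listed for the higher genes 7 named muscle, and of the 22 listed for the lower genes 0 did. With so few terms for the lower genes, that 0 says little about direction. In both sets of terms 0 named sarcomeres, myofibrils or contraction. Muscle was not the leading theme of the higher genes. Heart development was listed with 63 genes (3.52-fold) in the authors' deposited table, more genes than any of the 7 muscle terms. It is also a larger term, with 404 reference genes against 264 for muscle structure development, the largest muscle term. Its fold was slightly below the 3.62-fold of striated muscle cell differentiation. The term somitogenesis was enriched more than these muscle terms, 8.50-fold with 38 genes in the authors' deposited table.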

How the data were processed

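The labels describe 4 libraries of sorted germ cells at 13 hours post fertilization, 2 for each morpholino, made with a directional kit from bead-selected mRNA. Per the submitters' processing notes, the tools were cutadapt 1.10, STAR 2.5.2b, Cufflinks 2.2.1 and Cuffdiff, and the builds GRCz10 and Zv9 are named without roles. Positions are printed as deposited and are taken as GRCz10, because the largest on chromosome 4 (74754136) exceeds the length of that chromosome in Zv9. How strand was handled in the counting is not stated in the labels. The authors deposited FPKM, 1 value for each group with both libraries combined, per the file headers. The authors also deposited a log2 ratio, a test statistic (a score), and a p-value and q-value for each gene, and the ratios matched the FPKM within 1.34e-05. The smallest p-value is 5e-05, shared by 774 rows. The authors' PANTHER tables (release 20160715), per the file headers, hold counts of genes for each term, a fold (the ratio of genes found to genes expected) and a Bonferroni p-value.

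No test of the groups was run here, since the table gives 1 value for each group. Folds, ranks, medians and counts were computed with Python 3.11.15 and pandas 2.3.3, and the counting was tested on simulated data. Genes were matched to lists by the authors' symbol. The named genes are the 5 members, genes of the lists with those of largest ratio first, and the 2 genes nearest to each member, with clone names left out of the latter. Members and lists were chosen with earlier results of these data known. Alternatives were pseudocounts of 0.1 and 1, minimum levels of 1 and 5 FPKM, q under 0.01 and rescaling of the groups. A gene that this rule could name is left out of the text.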

Additional observations from a re-analysis of the deposited data

How the results depend on the processing

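The pseudocounts, the minimum levels and the q limit cannot turn the direction of a gene, nor can rescaling turn that of tnnt1, so only the 2 rescalings bear on direction. Under both, myf5, myod1, prdm1a and actc1a were still higher. At a minimum of 5 FPKM tnnt1 left the comparison, so 0 members were lower. Of the genes of the 7 lists of the wider programme 44 were then higher and 1 lower, in place of 47 and 2. At q under 0.01 these counts were 39 and 1, with smyd1b, tnni2b.1 and bag3 among the calls lost. Of all rows, 1055 were higher and 449 lower at that limit. The median log2 ratio of the 3 regulators, 3.42 as deposited, was 3.40 with a pseudocount of 0.1, 3.23 with a pseudocount of 1, 2.40 when each group was scaled to its sum over the table and 2.15 when ratios were centred on the median of the table. Its gap to actc1a, 0.72 as deposited, was 0.70 and 0.58 with the pseudocounts of 0.1 and 1. The scaling to sums shifted all log2 ratios by 1.02 and the centring by 1.26. After centring, 48.4% of rows were higher, a share set by the centring itself, beside 65.0% as deposited. As the table holds called genes only, neither scaling reflects whole libraries. No paired analysis was possible because the table gives 1 value for each group, and for the same reason leaving out a library was not run.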

Other observations

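Receptors of FGF signalling, which maintains myf5 and myod1 expression in zebrafish paraxial mesoderm, were looked up after their values were seen. All 5 genes in the authors' deposited table, fgfr1a, fgfr1b, fgfr2, fgfr3 and fgfr4, were higher with dead end MO, by 3.17-fold to 6.52-fold. Of all rows 65.0% were higher, and the median of the higher rows with both values above 0 was 2.96-fold. Whether these receptors bear on myf5 or myod1 was not tested. The largest rise was that of fgfr4, at 134.8 FPKM with dead end MO and 20.7 FPKM with control MO in the authors' deposited table. Also chosen after the values were seen, the T-box gene tbx6l stood at 83.5 FPKM with dead end MO and 9.45 FPKM with control MO (q = 0.00107), and synpo2lb, which encodes an actin-associated protein of striated muscle, at 6.53 FPKM with dead end MO and 0.696 FPKM with control MO (q = 0.0251), both in the authors' deposited table. In the same table the homeobox gene six9 was at 3.78 FPKM with dead end MO and listed at 0 with control MO.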
